A study of Mus musculus with 6 samples.

Results

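Intermediate filaments are rope-like polymers that run from the nuclear surface to the cell's adhesion sites and give cells mechanical strength. Simple epithelia build them from pairs of a type II and a type I keratin, mesenchymal cells build them from vimentin, and the nuclear lamins that line the inner face of the nuclear envelope are intermediate filament proteins too. Large linker proteins, the plakins among them, tie the cytoplasmic filaments to actin, microtubules, junctions and, through nesprins, the nucleus.

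Here the transcripts of such cytoplasmic filament and linker genes were followed in E0771 cells, a C57BL/6 mouse breast adenocarcinoma line, with and without knockdown of lamin A/C. The genes chosen were the simple-epithelial keratins Krt8, Krt18, Krt19 and Krt7, the basal keratins Krt14 and Krt5, the vimentin gene Vim, the nestin gene Nes and the plakins Plec and Dst. Of these 10 genes, 8 were found by an exact match of the symbol among the 10520 genes with counts, and Krt19 and Krt5 were not analysed here. The 3 shControl libraries came from cells carrying the empty lentiviral vector TRC2 pLKO.5-puro. The 3 shLmna libraries came from cells carrying a MISSION shRNA plasmid against lamin A/C, which is named shRNA4 in the titles. Both populations had been transduced with lentivirus, selected in puromycin and expanded, and the control vector is described as empty, so the controls are not described as carrying a hairpin. Whether the replicates were separate cultures is not stated, and the p-values below measure the spread between these libraries, which may be technical.

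RNA was measured by a bulk derivation of MARS-seq, a method that sequences transcript 3′ ends and tags each captured molecule with a unique molecular identifier (UMI). The libraries held between 1846208 and 3242051 UMIs. Plate positions 13 to 15 held shControl and 16 to 18 held shLmna, so an effect of position cannot be told apart from that of the group. A pair of libraries stood apart from the other 4. Summed over the 6 pigment cell markers analysed of a list of 7 (Mlana, Dct, Pmel, Tyrp1, Mitf and Sox10; Tyr was not analysed here), shControl replicate 3 held 1421 UMIs and shLmna replicate 2 held 1647, against 2 to 15 in the others. These melanocyte transcripts made up 0.0749% and 0.0629% of the UMIs of those libraries. Results for the genes studied, and for other genes that passed the test, are therefore also given without both libraries, and in some cases with their presence as a block.

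The targeted gene was lower in every shLmna library. Lmna lies on chromosome 3 (reverse strand; coordinates here are those of GRCm38, the mm10 build). UMI counts for replicates 1, 2 and 3, the order used throughout, were 2066, 2794 and 1764 with shControl against 1035, 1023 and 713 with shLmna. Its CPM, the UMI count scaled to a common library size with TMM factors, was 873 ± 62.8 in shControl and 381 ± 6.34 in shLmna (SD, n = 3 each). This is a log2 fold change of -1.20 with a standard error (SE) of 0.13 and an adjusted p of 3.5e-05, from the quasi-likelihood test of edgeR after Benjamini-Hochberg adjustment. Fold changes below are shLmna over shControl from the same fit of all 6 libraries, and adjusted p-values come from that test over the 8969 genes tested unless another fit is named.

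The promoter-proximal sequences below belong to the 4 filament genes studied whose RefSeq start lay at most 384 bases from the GENCODE gene start, and they are shown because these genes cover high, middle and low filament levels in these cells. Each is the 250 bases before the RefSeq start on GRCm38.p6, read 5′ to 3′ on the gene's strand. The positions are chr2:13574061-13574310 (forward) for Vim, chr3:87970843-87971092 (forward) for Nes, chr15:102004343-102004592 (reverse) for Krt8 and chr15:102027966-102028215 (forward) for Krt18. Capitals mark matches to any of 5 motifs searched on both strands, namely the TATA box TATAAA, the AP-1 motif TGANTCA, the GC box GGGCGG, the AP-2 type motif GCCNNNGGC and the STAT type motif TTCNNNGAA.
Vim: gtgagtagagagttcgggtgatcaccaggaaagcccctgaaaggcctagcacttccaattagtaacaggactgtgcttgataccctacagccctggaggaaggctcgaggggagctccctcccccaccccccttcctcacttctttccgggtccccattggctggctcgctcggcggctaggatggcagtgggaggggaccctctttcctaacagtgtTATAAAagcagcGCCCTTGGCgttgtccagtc
Nes: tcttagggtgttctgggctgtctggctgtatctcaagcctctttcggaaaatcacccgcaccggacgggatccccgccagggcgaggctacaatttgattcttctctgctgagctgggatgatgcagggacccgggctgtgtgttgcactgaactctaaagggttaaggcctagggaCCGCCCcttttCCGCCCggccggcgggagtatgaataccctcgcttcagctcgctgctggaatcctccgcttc
Krt8: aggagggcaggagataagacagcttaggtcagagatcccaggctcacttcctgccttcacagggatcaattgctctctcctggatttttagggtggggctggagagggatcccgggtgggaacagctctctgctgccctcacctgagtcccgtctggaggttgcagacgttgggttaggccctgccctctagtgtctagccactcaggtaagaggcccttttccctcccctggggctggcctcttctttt
Krt18: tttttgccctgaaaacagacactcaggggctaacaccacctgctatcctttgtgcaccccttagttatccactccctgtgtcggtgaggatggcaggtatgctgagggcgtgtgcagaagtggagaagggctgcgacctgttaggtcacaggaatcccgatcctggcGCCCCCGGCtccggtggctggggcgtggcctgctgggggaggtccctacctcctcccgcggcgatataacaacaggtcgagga
The Vim window held a TATA box and an AP-2 type match. The Krt18 window held an AP-2 type match, the Nes window held 2 GC boxes, and the Krt8 window held none of the 5 motifs. Among all 32851 promoter windows of that length, 12.4% held the TATA box, 13.7% the AP-2 type motif, 32.7% the GC box, 6.75% the AP-1 motif and 7.02% the STAT type motif. A match is a description of letters and not of a bound site.

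None of the filament and linker genes studied passed the test in either direction. Of the 8 genes with counts, 7 were tested and Krt7 failed the filter on low counts, and 0 of the 7 were higher and 0 lower at an adjusted p below 0.05, where 13.7% of all tested genes were called (7.96% higher, 5.78% lower). At an unadjusted p below 0.05 there were 2 of the 7, Krt14 and Dst, against 28.4% of all tested genes. DESeq2 also called 0 of them, and 11.5% of all genes. By the study's criteria (mean normalized count above 5, absolute log2 fold change above 1 and adjusted p below 0.05) 0 were called, against 5.71% of all tested genes. The fold changes were positive for 3 genes and negative for 4, with a median log2 of -0.02 against 0.0033 over all tested genes. The low and high CPM values of the groups did not overlap for 2 of the 7, Krt14 and Dst, and 32.5% of all tested genes did not overlap in this way. Leaving out the melanocyte-marker libraries, 0 of these genes were called as well, with log2 fold changes of 0.09 for Krt8, 0.20 for Nes and -0.10 for Plec.

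**Figure D1:**
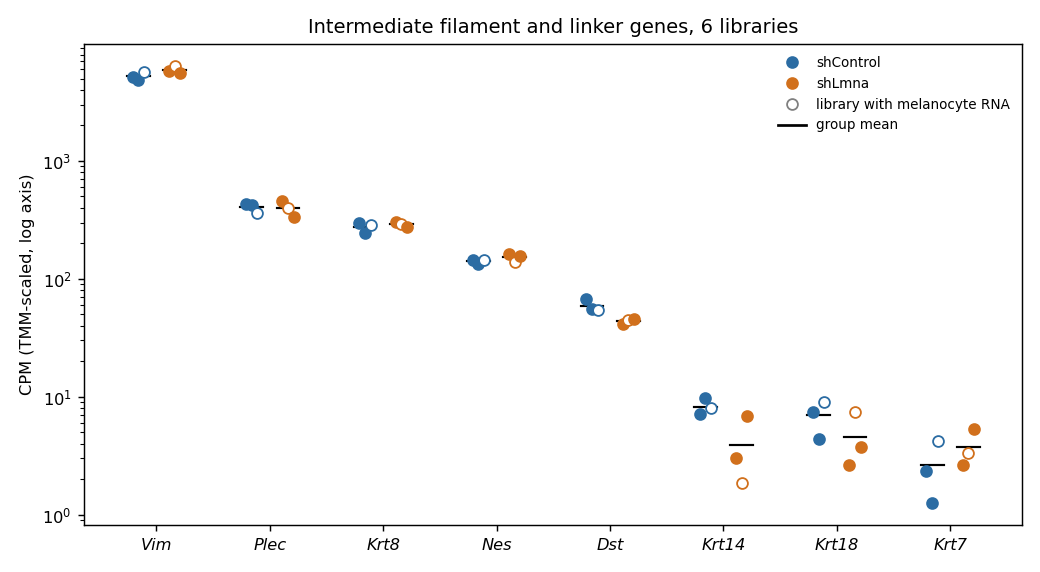
TMM-scaled CPM on a log axis for the 8 intermediate filament and linker genes with counts, in 3 shControl (blue) and 3 shLmna (orange) libraries. Open points are the 2 libraries with melanocyte transcripts and black lines are group means. Vim lies at 4815 CPM or more in every library, Plec, Krt8, Nes and Dst lie between 41.2 and 457 CPM, and Krt14, Krt18 and Krt7 lie below 10 CPM.

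The levels themselves spanned more than 3 orders of magnitude. Because each UMI stands for a captured 3′ end, CPM was compared between genes without scaling to transcript length, although genes can differ in how well their ends are captured and mapped. Vim was the 6th of 10520 genes by mean CPM. Plec followed at rank 415, Krt8 at 651, Nes at 1486 and Dst at 3637, while Krt14, Krt18 and Krt7 stood at ranks 8189, 8289 and 9129. From Vim down to Krt14 the CPM ranges of neighbours in this order did not overlap over the 6 libraries. Krt14 and Krt18 overlapped in both groups, and Krt18 and Krt7 overlapped in shLmna. Together the 8 genes held 0.600 ± 0.047% of all UMIs in shControl and 0.694 ± 0.0573% in shLmna (SD, n = 3 each), and the highest shControl share of 0.652% lay just under the lowest shLmna share of 0.656%. In TMM-scaled CPM the groups overlapped, with sums of 5690 to 6562 in shControl and 6436 to 7296 in shLmna. Vim UMIs alone were 84.4% to 87.9% of that sum.

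Vimentin, the type III filament protein of mesenchymal cells, did not pass the test. Vim, at 13573927 to 13582826 of chromosome 2, had 13191, 15399 and 10743 UMIs in shControl and 15424, 17461 and 10546 in shLmna. CPM was 5173, 4815 and 5700 in shControl and 5780, 6410 and 5608 in shLmna. The highest value came from shLmna replicate 2, and shControl replicate 3 lay above shLmna replicate 3, so the groups overlapped. These 2 libraries, shLmna replicate 2 and shControl replicate 3, were the highest of their groups and were also those with melanocyte transcripts, whose part in the Vim level was not tested. The means were 5229 ± 445 and 5933 ± 422 CPM (SD, n = 3 each), a fold of 1.13 with a 95% interval of 0.927 to 1.39 and an adjusted p of 0.414. The log2 fold change was 0.18 (SE 0.14), and it was 0.19 without the melanocyte-marker libraries.

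Nestin, a type VI protein that copolymerizes with vimentin and is known from stem and progenitor cells, did not pass it either. Nes, on chromosome 3 from 87971078 to 87980451, had 371, 430 and 274 UMIs in shControl and 435, 376 and 296 in shLmna. Mean CPM was 142 ± 6.34 in shControl and 153 ± 13.1 in shLmna (SD, n = 3 each), with 134 to 146 in one group and 138 to 163 in the other. The groups overlapped, and the log2 fold change of 0.11 (95% interval -0.19 to 0.41) had an adjusted p of 0.656.

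Of the simple-epithelial keratins, Krt8 was the only one counted at depth. Krt8 encodes the type II keratin that pairs with the type I keratins K18 and K19, and its gene occupies 101996698 to 102004482 of chromosome 15 (reverse strand). Its UMI counts were 764, 787 and 534 in shControl and 814, 796 and 516 in shLmna. CPM was 300, 246 and 283 in shControl and 305, 292 and 274 in shLmna, so both groups covered much the same range. The means were 276 ± 27.4 and 291 ± 15.4 CPM (SD, n = 3 each), a fold of 1.05 with a 95% interval of 0.86 to 1.29 (adjusted p = 0.776). A change in Krt8 of more than 1.29-fold in either direction lay outside that interval. An annotated pseudogene transcript, Krt8-ps, is 97.3% identical to the Krt8 end over 226 bases with a longest identical run of 103 bases, and how the authors' counting treated reads that fit both is not stated in the sources used here.

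Krt18 encodes a type I partner of keratin 8, and its counts were far lower than those of Krt8. It occupies 102028180 to 102032027 of chromosome 15 (forward strand), with its start 23.9 kb from that of Krt8. Its UMI counts were 19, 14 and 17 in shControl and 7, 20 and 7 in shLmna. The groups overlapped, and the highest CPM of each came from a library with melanocyte transcripts, 9.02 in shControl replicate 3 and 7.34 in shLmna replicate 2. Mean CPM was 6.95 ± 2.36 in shControl and 4.56 ± 2.47 in shLmna (SD, n = 3 each), and the log2 fold change of -0.53 had a wide 95% interval, -1.44 to 0.39 (adjusted p = 0.453). Without those libraries it was -0.89 with an adjusted p of 0.26. Per Krt8 UMI there were 0.0249, 0.0178 and 0.0318 Krt18 UMIs in the shControl libraries and 0.0086, 0.0251 and 0.0136 in the shLmna libraries. The mean ratio was 0.0248 ± 0.00702 in shControl and 0.0158 ± 0.00848 in shLmna (SD, n = 3 each), and the groups overlapped. Without the libraries with melanocyte transcripts the mean ratios were 0.0213 and 0.0111 (n = 2 each). No other annotated transcript shared a stretch of at least 90% identity and 100 bases with the Krt18 end.

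Krt7, a type II keratin of ductal and glandular epithelia, was close to the limit of counting. It had 6, 4 and 8 UMIs in shControl and 7, 9 and 10 in shLmna. Mean CPM was 2.62 ± 1.51 and 3.75 ± 1.4 (SD, n = 3 each), with overlapping groups. In the fit without a filter on low counts, where 11.5% of 10520 genes were called, its log2 fold change was 0.56 (95% interval -0.64 to 1.76, adjusted p = 0.56), and 1.09 (adjusted p = 0.32) with the melanocyte-marker libraries left out as well. The RefSeq end of Krt7 lay 2507 bases from the GENCODE end, and the authors counted RefSeq ends. Repeat-like stretches of the GENCODE end matched transcripts of 97 other genes. Copies of the RefSeq end were not searched, so the part of such matches in this count is uncertain.

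Krt14, the type I keratin of basal and myoepithelial cells, had the largest fold change of the 7 tested genes, at low counts. It occupies 100203162 to 100207548 of chromosome 11 (reverse strand). Its UMI counts were 18, 31 and 15 in shControl and 8, 5 and 13 in shLmna. CPM was 7.06, 9.69 and 7.96 in shControl and 3, 1.84 and 6.91 in shLmna. All 3 shLmna values lay below all 3 shControl values, with shLmna replicate 3 just below the lowest control. The means were 8.24 ± 1.34 and 3.92 ± 2.66 CPM (SD, n = 3 each), a fold of 0.443 with a 95% interval of 0.237 to 0.827. The log2 fold change of -1.18 (SE 0.42) had an unadjusted p of 0.0133 and an adjusted p of 0.0772, which missed the threshold.

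The call for Krt14 turned on the libraries used. Without shLmna replicate 3 the log2 fold change was -1.76 with an adjusted p of 0.039, in a fit that called 2.52% of all genes lower. It was weaker without shLmna replicate 2, at -0.81 with an adjusted p of 0.27, and without shControl replicate 2, at -1.01 with an adjusted p of 0.295, and DESeq2 gave -1.15 with an adjusted p of 0.16. Without the melanocyte-marker libraries (2 against 2) it was -0.84 with an adjusted p of 0.23, in a fit that called 5.45% lower. With their presence as a block it was -1.16 with an adjusted p of 0.045 (9.34% called lower). The limma-voom fit gave -1.33 with an adjusted p of 0.047 (5.76% called lower), and the ComBat values gave -0.26 with an adjusted p of 0.021 (15.7% called lower). Fold changes from the ComBat values were much smaller for genes with low counts, such as Krt16 at -0.62 against -2.73. Their size is therefore not compared with that of the other fits. The last bases of Krt14 and of its neighbour Krt17 are 91.6% identical over 689 bases, with a longest identical run of 71 bases, so the counts of this pair are uncertain where reads could fit both.

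Plectin, encoded by Plec, is a giant plakin that crosslinks intermediate filaments to actin, hemidesmosomes and, through nesprin-3, the outer nuclear membrane. Plec, at 76170974 to 76232574 of chromosome 15 (reverse strand), had 1096, 1356 and 675 UMIs in shControl and 1220, 1086 and 630 in shLmna. CPM was 430, 424 and 358 in shControl and 457, 399 and 335 in shLmna, and the lowest value of each group came from replicate 3. The means were 404 ± 39.8 and 397 ± 61.1 CPM (SD, n = 3 each), and the log2 fold change was -0.02 with a 95% interval of -0.34 to 0.29 (adjusted p = 0.939). Its sign turned with single libraries left out, to 0.01 without shControl replicate 1 or 2 and to 0.08 without shLmna replicate 3.

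Dystonin, encoded by Dst, has epithelial isoforms that anchor keratin to hemidesmosomes and other isoforms that bind actin and microtubules. Isoforms that share a 3′ end cannot be told apart in these counts, and which isoforms the counts cover was not examined. Dst, on chromosome 1 from 33908225 to 34308661, had 173, 176 and 103 UMIs in shControl and 110, 121 and 85 in shLmna. CPM was 67.8, 55 and 54.6 in shControl and 41.2, 44.4 and 45.2 in shLmna. Every shLmna library lay below every shControl library. The means were 59.2 ± 7.51 and 43.6 ± 2.11 CPM (SD, n = 3 each), a fold of 0.736 with a 95% interval of 0.575 to 0.942. The log2 fold change of -0.44 (SE 0.17) had an unadjusted p of 0.0183 and an adjusted p of 0.0942, which missed the threshold.

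The counted end of Dst was poor in GC, 37.8% against a median of 47.1% over all tested genes, whereas those of Plec, Krt14, Nes and Krt8 held 56.3% to 58.8%. With a correction for the GC content of the counted ends, fitted in each library, the Dst log2 fold change was -0.69 with an adjusted p of 0.017. In that fit 8.65% of all tested genes were called lower, against 5.78% without the correction. With the replicate block added to it Dst was at -0.67 (adjusted p = 0.023, 8.09% called lower), and the ComBat values gave -0.22 (adjusted p = 0.011). Without the melanocyte-marker libraries Dst was at -0.50 (adjusted p = 0.11), and with their presence as a block at -0.44 (adjusted p = 0.057).

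**Figure D2:**
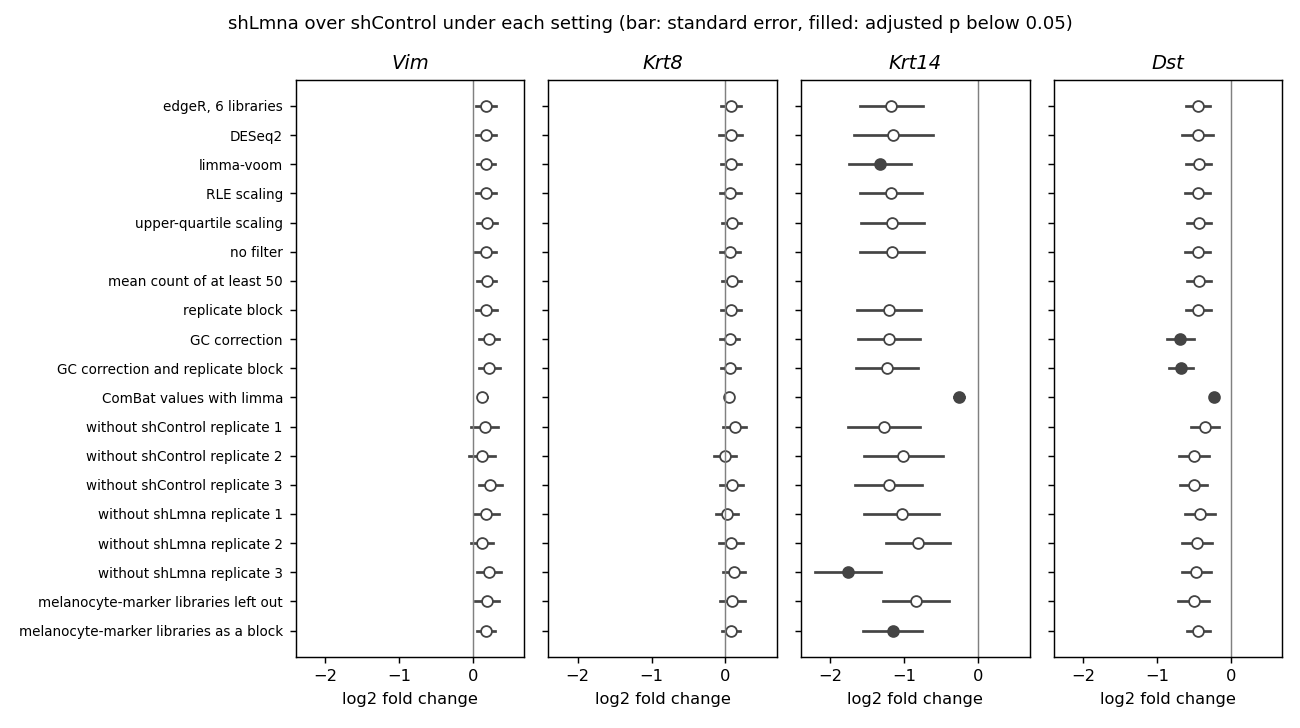
Log2 fold change of Vim, Krt8, Krt14 and Dst, shLmna over shControl (x axis), under each setting (y axis). Bars are standard errors and filled points have an adjusted p below 0.05. Vim and Krt8 have only unfilled points near 0, while Krt14 ranges from -1.76 to -0.26 and is filled in 4 settings and Dst ranges from -0.69 to -0.22 and is filled in 3. The ends at -0.26 and -0.22 are from the ComBat values, whose fold changes were smaller at low counts and are not comparable in size. Krt14 has no point where a mean count of at least 50 was required.

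The balance between keratin and vimentin transcripts did not separate the groups. Krt8 UMIs per 100 Vim UMIs were 5.29 ± 0.439 in shControl and 4.91 ± 0.36 in shLmna (SD, n = 3 each). The 4 keratins together were 4.80 ± 0.314% of the UMIs of the 8 genes in shControl and 4.44 ± 0.239% in shLmna (SD, n = 3 each). Both measures overlapped between the groups.

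The other intermediate filament genes were taken as a list of 39, of which 6 were analysed here and 3 passed the filter. Among these 3, 0 were higher and 1 was lower, where 7.96% of all tested genes were called higher and 5.78% lower, with a median log2 fold change of -0.06. The gene that fell was Krt16, a type I keratin of stressed and wounded epidermis. Krt16, on chromosome 11 from 100246091 to 100248902, had 48, 44 and 17 UMIs in shControl and 8, 2 and 5 in shLmna. Every shLmna library held fewer UMIs than any shControl library. Krt16 passed the filter on low counts only through its shControl libraries, so the share of 1 in 3 depends on the filter and is not read as a result. Mean CPM was 13.9 ± 4.9 in shControl and 2.13 ± 1.22 in shLmna (SD, n = 3 each), a fold of 0.15 (log2 -2.73, SE 0.44, adjusted p = 0.000916). Without the melanocyte-marker libraries it was -2.48 with an adjusted p of 0.00024. The pseudogene Gm11597 is 91.5% identical to the Krt16 end over 857 bases, with an identical run of 409 bases, so this count is uncertain where reads could fit both.

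The 2 others that passed the filter did not pass the test. Prph, which encodes the neuronal filament protein peripherin, had 258, 314 and 163 UMIs in shControl and 298, 228 and 148 in shLmna (log2 -0.06, adjusted p = 0.859). Des, the gene of the muscle filament protein desmin, had 14, 10 and 6 against 16, 21 and 8 (log2 0.63, adjusted p = 0.309), and its counted end overlaps the antisense gene Gm15179.

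The 3 remaining genes were counted too rarely for the filter and are named after their values were seen. In the fit without a filter, 4 of the 6 genes were called, 1 higher and 3 lower, where 6.75% and 4.78% of all genes were called. Krt17, a type I keratin of basal and wounded epithelia, had 17, 11 and 11 UMIs in shControl and 3, 2 and 4 in shLmna (log2 -2.02, SE 0.56, adjusted p = 0.0293), and it missed the threshold without shLmna replicate 1 (adjusted p = 0.083), without shLmna replicate 2 (adjusted p = 0.086) and without both melanocyte-marker libraries (log2 -1.64, adjusted p = 0.11). Krt20, a type I keratin of gut and urothelial lining cells, had 10, 10 and 5 UMIs in shControl and 1, 0 and 2 in shLmna, at least 2.54-fold lower against a floor of 3 UMIs per library (adjusted p = 0.0309, and 0.075 without the melanocyte-marker libraries). Synm, which encodes synemin, a linker-like filament protein that copolymerizes with vimentin and desmin, had 0, 1 and 1 UMIs in shControl and 5, 10 and 9 in shLmna, at least 2.79-fold higher by the same floor (adjusted p = 0.0169, with 0.066 without shControl replicate 2 and 0.030 without the melanocyte-marker libraries).

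**Figure D3:**
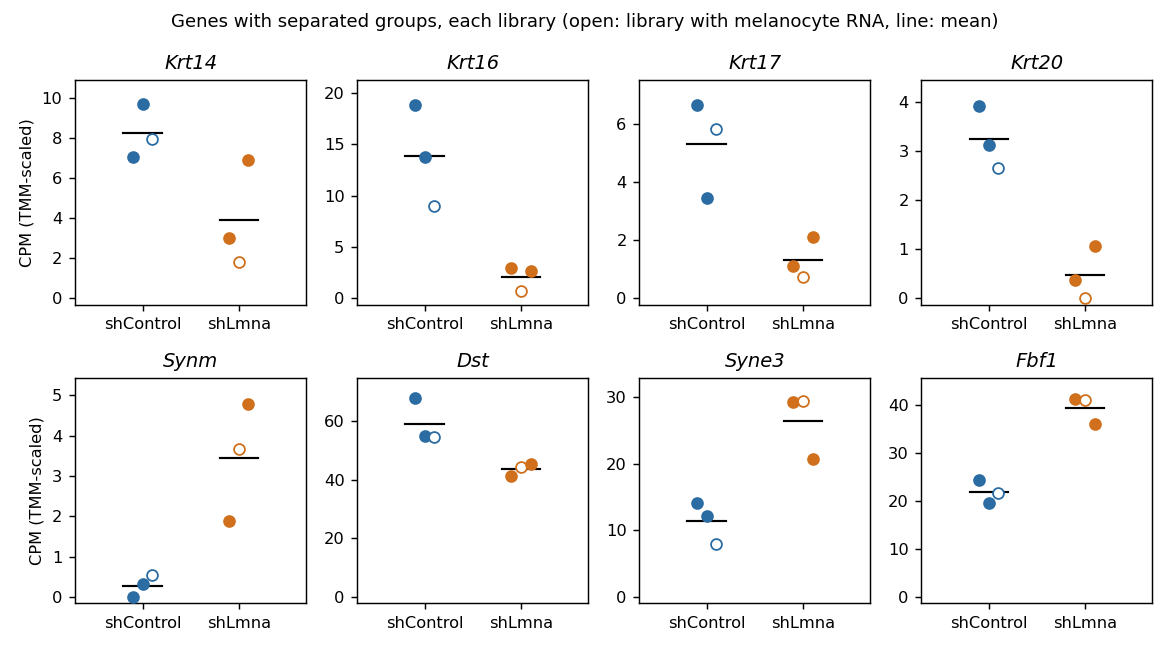
TMM-scaled CPM of 8 filament and linker genes whose groups did not overlap, in 3 shControl (blue) and 3 shLmna (orange) libraries. The genes are shown because of that separation, and 32.5% of all tested genes did not overlap either. Open points are libraries with melanocyte transcripts and lines are group means. Krt14, Krt16, Krt17, Krt20 and Dst lie lower in shLmna, and Synm, Syne3 and Fbf1 lie higher. Most of these levels are below 20 CPM.

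The keratins whose groups did not overlap lay in the same genomic cluster. The type I cluster on chromosome 11, from 99232761 to 100269871, holds 27 annotated keratin genes, of which 4 were analysed here (Krt20, Krt14, Krt16 and Krt17). In all 4 the shLmna values lay below the shControl values. The type II cluster on chromosome 15, from 101347444 to 102032027, holds 26, of which Krt7, Krt8 and the type I gene Krt18 at its edge were analysed here, and all 3 overlapped between groups. Of all tested genes 32.5% did not overlap, in either direction, and Krt17 and Krt20 were not among the genes tested. As Krt14 and Krt17 may also share reads, nothing particular to the clusters is read from these counts.

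Other cytolinkers were a list of 11, of which 7 were analysed here and 5 tested. Of these 5, 2 rose and 0 fell, where 7.96% of all tested genes rose and 5.78% fell, and the median log2 fold change was 0.35 against 0.0033 over all tested genes. Syne3 encodes nesprin-3, the outer nuclear membrane protein that plectin binds to link intermediate filaments to the nucleus. Syne3, on chromosome 12 from 104929933 to 105009809, had 36, 39 and 15 UMIs in shControl and 78, 80 and 39 in shLmna. Only the deeper shControl replicate 2 reached the UMI count of the shallow shLmna replicate 3, and in CPM the groups did not overlap. Mean CPM was 11.4 ± 3.15 in shControl and 26.4 ± 4.94 in shLmna (SD, n = 3 each), a fold of 2.29 with a 95% interval of 1.58 to 3.32 (log2 1.19, SE 0.25, adjusted p = 0.00599). Without the melanocyte-marker libraries it was 0.95 with an adjusted p of 0.025.

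Fbf1 encodes a protein of keratin filaments and of ciliary transition fibres. It had 62, 63 and 41 UMIs in shControl and 110, 112 and 68 in shLmna. Mean CPM was 21.9 ± 2.31 and 39.5 ± 2.89 (SD, n = 3 each), a fold of 1.81 (log2 0.86, SE 0.19, adjusted p = 0.00852). It was 0.83 with an adjusted p of 0.023 without the melanocyte-marker libraries. Without shControl replicate 2 the adjusted p was 0.0654. Macf1, a plakin that crosslinks actin and microtubules, had 162, 181 and 86 UMIs in shControl and 174, 156 and 128 in shLmna (log2 0.19, adjusted p = 0.506).

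Of the junctional anchors of the filaments, 6 of 14 were analysed here and tested, and 0 passed the test, where 13.7% of all tested genes were called. These anchors had 4 positive and 2 negative values and a median log2 fold change of 0.05. The 3 most counted were Cd151, a tetraspanin that associates with laminin-binding integrins, at log2 0.02 (adjusted p = 0.962), and the plakophilins Pkp4 at -0.10 (adjusted p = 0.743) and Pkp2 at 0.24 (adjusted p = 0.427). Pkp2 had 107, 148 and 118 UMIs in shControl and 142, 173 and 112 in shLmna. At an unadjusted p below 0.05 there were also none, against 28.4% of all tested genes, and DESeq2 called 0, against 11.5% of all genes.

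Chaperones, kinases and proteases that act on filaments were a list of 18, of which 16 were analysed here and 13 tested. Of these 13, 0 rose and 1 fell, where 13.7% of all tested genes were called in either direction, and the median log2 fold change was -0.0024. The CPM values of the groups did not overlap for 8 of the 13, against 32.5% of all tested genes. Hspa8, the gene of the constitutive chaperone Hsc70, had 14274, 14681 and 8741 UMIs in shControl and 8184, 6814 and 5770 in shLmna. Mean CPM was 4942 ± 569 in shControl and 2879 ± 327 in shLmna (SD, n = 3 each), a fold of 0.583 with a 95% interval of 0.469 to 0.723 (log2 -0.78, SE 0.15, adjusted p = 0.0029). Without the melanocyte-marker libraries it was -0.73 with an adjusted p of 0.0047. The 14-3-3 gene Ywhae, whose protein family binds phosphorylated keratin and vimentin, was at log2 0.10 (adjusted p = 0.702). Of the other 14-3-3 genes tested, Ywhaz was at -0.47 (adjusted p = 0.053) and Ywhah at 0.07 (adjusted p = 0.786). Plk1, a mitotic kinase that phosphorylates vimentin, was at 0.27 (adjusted p = 0.208).

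**Figure D4:**
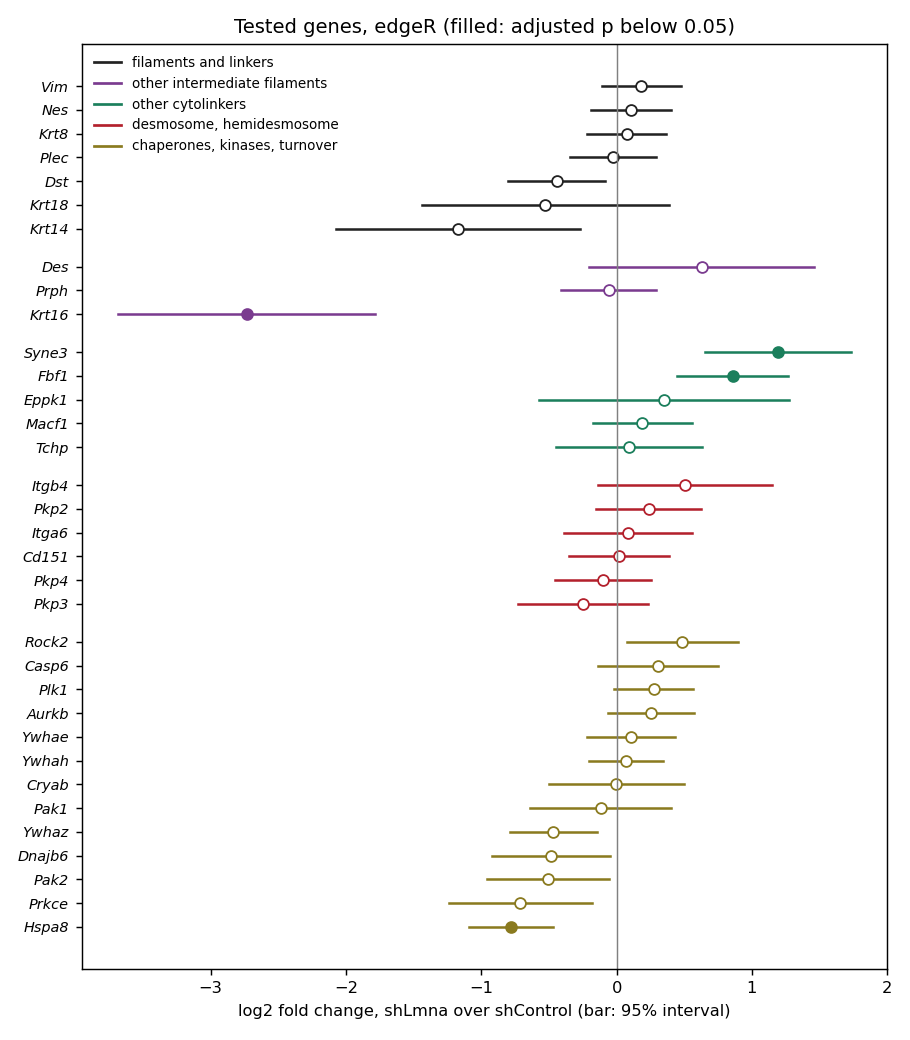
Log2 fold change, shLmna over shControl (x axis), for each tested gene of the filament and linker genes studied and of the 4 related lists (y axis, by list). Bars are 95% intervals and filled points have an adjusted p below 0.05. The 4 filled points are Krt16 at -2.73, Syne3 at 1.19, Fbf1 at 0.86 and Hspa8 at -0.78, and the 7 genes studied at the top are all open.

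The keratin and vimentin levels were set beside markers of the cell types that use them. Of 18 luminal epithelial markers 5 were analysed here (Krt8, Krt18, Krt7, Epcam and Foxa1), 3 of them genes studied above, and 0 of the 3 tested were called. Their summed level was 270 to 325 CPM in shControl and 291 to 319 CPM in shLmna, nearly all of it Krt8. Epcam, the epithelial adhesion molecule, had 34, 46 and 25 UMIs in shControl and 14, 32 and 8 in shLmna (log2 -0.90, adjusted p = 0.0909). Leaving out the melanocyte-marker libraries it was at -1.51 with an adjusted p of 0.0083. Of the markers that define luminal cells, Krt8 was thus well counted and Epcam low, and the E-cadherin gene Cdh1, Krt19, Esr1 and Gata3 were not analysed here. Of 8 mesenchymal markers 7 were analysed here, summing to 5137 to 6008 CPM in shControl and 6100 to 6781 CPM in shLmna, nearly all of it Vim. Twist1, a transcription factor of mesenchymal cells, rose from 198 ± 22.7 to 302 ± 46.1 CPM (SD, n = 3 each, log2 0.61, adjusted p = 0.0163), and missed the threshold without shControl replicate 1 (adjusted p = 0.067) or shLmna replicate 3 (adjusted p = 0.084). It was at 0.68 (adjusted p = 0.012) without the melanocyte-marker libraries. Of the other transcription factors in this list, Zeb1 was at log2 0.58 (unadjusted p = 0.0267, adjusted p = 0.118). Its groups did not overlap in CPM, as for 32.5% of all tested genes. Zeb2 failed the filter and was at 0.54 in the fit without it (adjusted p = 0.509). Snai1 was at 0.15 (adjusted p = 0.599) and Snai2 at -0.29 (adjusted p = 0.518). With the GC correction Snai2 was at -0.85 (adjusted p = 0.021), in a fit that called 8.65% of all tested genes lower.

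Of 10 basal and myoepithelial markers 5 were analysed here, among them Krt14 and Krt17, and Acta2, the smooth muscle actin gene, was the only one of 3 tested that was called. It had 7, 13 and 3 UMIs in shControl and 26, 41 and 31 in shLmna (log2 2.18, SE 0.38, adjusted p = 0.00147), the opposite sign to Krt14. Acta2 passed the filter on low counts through its shLmna libraries. Without the melanocyte-marker libraries Acta2 was at 1.87 (adjusted p = 0.0048). Cnn1, the calponin gene and the most counted of the list, was at log2 0.42 (adjusted p = 0.313), and Trp63 was not analysed here. Melanocyte markers summed to 754 CPM in shControl replicate 3 and 605 CPM in shLmna replicate 2. Apart from these, markers of cell types that could contaminate a culture were low. The fibroblast and leukocyte sums were nevertheless higher in every shLmna library than in any shControl library. Fibroblast markers (4 of 7 analysed) summed to 18.6 to 18.8 CPM in shControl and 27.2 to 30.8 CPM in shLmna, with Pdgfrb at log2 0.74 (adjusted p = 0.0457), a call lost without any single library (adjusted p 0.080 to 0.14) and without the melanocyte-marker libraries (0.11). Leukocyte markers (3 of 8 analysed, without Ptprc) summed to 15.9 to 19.2 and 20.9 to 26.6 CPM, with Lyz2 at log2 1.28 (adjusted p = 0.011, with 0.052 without shControl replicate 1 and 0.0094 without the melanocyte-marker libraries) and Cd68 at -0.62 (adjusted p = 0.234). The endothelial marker Pecam1 had 2 to 7 UMIs. Their part in the filament levels was not tested. In bulk libraries fewer cells expressing a keratin and less of its RNA per cell cannot be told apart.

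**Figure D5:**
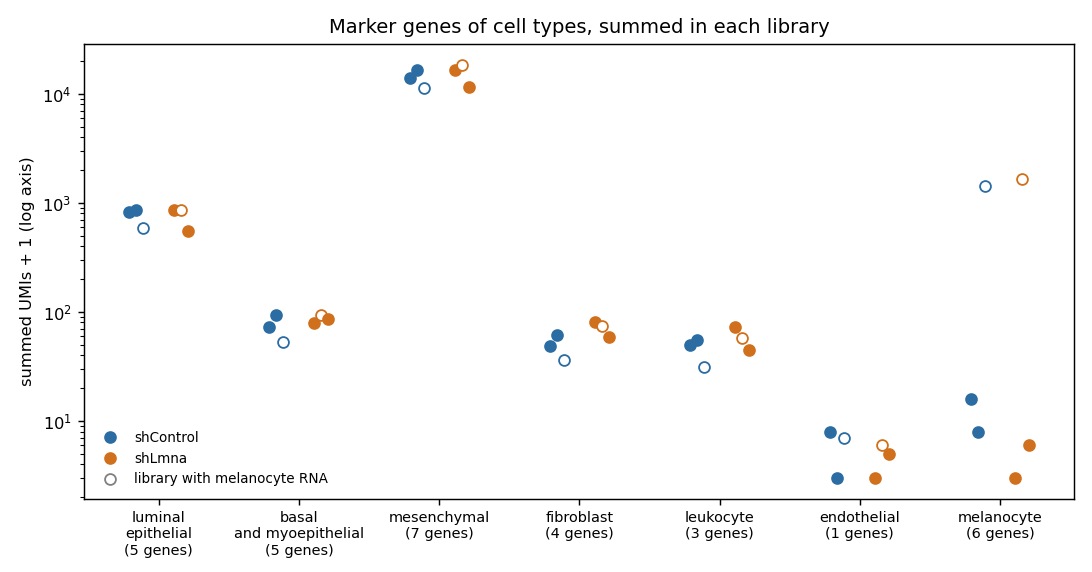
UMIs summed over the analysed genes of each cell type marker list, plus 1, on a log axis, in 3 shControl (blue) and 3 shLmna (orange) libraries. Open points are the libraries with melanocyte transcripts. The melanocyte sums are 1421 and 1647 in these 2 libraries and 2 to 15 in the other 4, whereas in the other lists the open points lie near the filled ones.

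Genes with the most similar profile over the 6 libraries were found by the root mean square (RMS) difference in centred log2 CPM among genes with a mean count of at least 50. For Krt8 these were Dennd5a, Zfp511 and G6pc3 (RMS 0.0395, 0.0443 and 0.0489 among 5845 genes), and Nes ranked 113 and Vim 167. For Vim they were Mrpl51, Cdc42se1 and Spc25 (RMS 0.0242, 0.0307 and 0.0344), and Krt8 ranked 147. For Krt18 the nearest were Ccnt1, Snhg3 and Acsl6 at larger distances (RMS 0.238, 0.257 and 0.261 among 5846 genes), and its partner Krt8 ranked 1962. All these points share the same 6 libraries, and the flat profiles of Krt8 and Vim leave many genes close to them.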

How the data were processed

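The authors trimmed reads with Cutadapt, mapped them to mm10 with STAR 2.4.2a and counted UMIs at the 3′ ends of RefSeq genes, and the deposited counts are whole numbers without normalization. The authors also deposited log2 values corrected with ComBat, for a batch not given in the sources used here, which served only as an alternative fitted with limma. The authors' DESeq2 table of means, fold changes and p-values was not used.

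Counts were fitted in R 4.3.3 with edgeR 4.0.16 (filterByExpr with a minimum count of 10, TMM factors, quasi-likelihood test by group, Benjamini-Hochberg adjustment over 8969 genes). Alternatives used DESeq2 1.42.0, limma-voom 3.58.1, other scalings and filters, blocks, and a GC correction (loess, span 0.3, degree 2). Scripts were tested on simulated data. Depth was 1846208 to 3242051 UMIs, and replicates differed by more than sampling noise (chi-square per degree of freedom 5.11 to 8.28). The smallest p that an exact permutation test of 3 against 3 libraries allows is 0.1. Coordinates came from GENCODE M21 and promoter sequences from RefSeq (GRCm38.p6). Copies of the counted ends, taken as the GENCODE ends, were searched among annotated transcripts with BLAST 2.17.0.

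The genes studied and the lists were chosen with earlier results of these data known. Named were every gene studied, Lmna, in the 4 related lists every called gene and the 3 most counted, in marker lists the most counted, and the 3 nearest profiles of Krt8, Krt18 and Vim. Krt17, Krt20, Synm, Epcam, Twist1, Snai1, Snai2, Zeb1, Zeb2, Ywhaz, Ywhah, Acta2 and Cd68 were named after their values were seen.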

Additional observations from a re-analysis of the deposited data

How the results depend on the processing

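Lmna and Krt16 stayed called and lower under every setting that tested them. Lmna lay between -1.26 and -0.87 on the log2 scale, with -0.87 from the ComBat values. The number of filament and linker genes studied that were called lower was 0, and it became 1 with limma-voom, 1 with the GC correction, 1 with the GC correction and replicate block, 1 with the melanocyte-marker libraries as a block and 2 with the ComBat values. Those past the study's criteria went from 0 to 1 with limma-voom and to 1 with the melanocyte block. With single libraries left out both counts ranged from 0 to 1, and the call was Krt14 without shLmna replicate 3. None of these genes was called higher under any setting.

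Of the other intermediate filament genes 1 was called, against 4 with no filter, 0 with a mean count of at least 50, which removed Krt16, and 4 with the ComBat values (1 to 2 with single libraries left out). Of the cytolinkers 2 were called, against 1 with a mean count of at least 50 (1 to 2 with single libraries left out, 1 without shControl replicate 2). Of the chaperones and kinases 1 was called, against 2 with the replicate block, 4 with the GC correction, 2 with the GC correction and replicate block, 8 with the ComBat values and 3 with the melanocyte block (1 to 2 with single libraries left out). Over all genes the calls rose as well, from 1232 to 1350 with the replicate block, 1383 with the GC correction and replicate block, 1505 with the GC correction, 1868 with the melanocyte block and 3476 with the ComBat values. The signs that turned were Krt8 at -0.0070 without shControl replicate 2, and Plec at 0.0098 without shControl replicate 1, 0.0085 without shControl replicate 2 and 0.0838 without shLmna replicate 3. Of other genes near 0, Macf1 turned to -0.0018 and Ywhae to -0.0645 with the GC correction, Ywhae to -0.0710 with the replicate block added, and Cd151 to -0.0762 without the melanocyte-marker libraries. With single libraries left out Prph ranged from -0.2455 to 0.0350, Cd151 from -0.1455 to 0.2148, Pkp4 from -0.1985 to 0.0050 and Ywhae from -0.0318 to 0.2109, while Krt8 ranged from -0.0070 to 0.1247 and Plec from -0.1529 to 0.0838. The cause of these shifts was not tested.

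The labels number the replicates 1 to 3 in both groups without saying what a number shares. Deviations of same-numbered libraries correlated at 0.3517, -0.1148 and 0.0052. Differently numbered libraries were not compared in this way, so these values cannot decide whether the numbers pair the libraries. With the replicate block 1350 genes were called against 1232, and none of the genes studied was (Krt14 at -1.21, adjusted p = 0.075). The settings that use the melanocyte-marker libraries were chosen after seeing the data. Krt7, Krt18, Krt14, Krt17, Krt20 and Synm rest on few UMIs, and modest changes in them were not detectable at this depth.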
